A study of Mus musculus with 46 samples.

Results

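Type I interferon-stimulated genes are the genes that cells switch on after interferon alpha or beta binds its receptor. Described here are 37 of them, chosen by name as a set and all present among the 46264 gene symbols of the table. By role they are 6 RNA and nucleic acid sensors, 5 members of the oligoadenylate synthetase (OAS) family, 3 IFIT proteins, 3 STAT and IRF factors, 3 genes of the ISG15 system, 2 PYHIN proteins, 3 genes of the PARP and DTX3L group and 12 other effectors.

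The series holds 46 bulk RNA libraries from mice and concerns intravenous immunoglobulin (IVIG), pooled antibody given into a vein, in mice with a model of anti-laminin 332 pemphigoid, in which autoantibodies blister mucous membranes. Blood and neutrophils have 5 libraries with IVIG and 5 with phosphate-buffered saline (PBS) each, monocytes have 3 with IVIG and 5 with PBS, and skin has 3 of each. In a separate experiment whose tissue is labelled only Ics, the 0 h group, 3 h group and 6 h group hold 4 libraries each. Titles call the first group unstimulated and the later ones stimulated, with Ics as the only word for the stimulus, and say nothing of the cells. The labels give no strain, age or allele, and place the neutrophils and monocytes of the series in bone marrow. Separate mice or cultures are not stated for any library, so every p-value below measures only the spread between these libraries.

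When interferon alpha or beta binds the receptor of IFNAR1 and IFNAR2, the kinases TYK2 and JAK1 phosphorylate STAT proteins, STAT2 among them. With IRF9 these form the factor ISGF3, which binds interferon-stimulated response elements in the promoters of the genes described here. The products sense viral RNA, block translation, degrade RNA, restrict viral budding and feed back on the pathway, and even without infection a basal interferon signal keeps many of them transcribed in myeloid cells.

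Library totals were 24827887 to 29502869 estimated counts in the Ics experiment and 18965434 to 43176793 in the other 34 libraries. The Ics libraries carried neutrophil markers throughout: 10 of 10 were detected, with S100a8 and S100a9 together at 28660 to 49446 CPM (counts scaled to a common library total), while Krt5, Krt14, Krt1 and Krt15 were at 0. In the other 34 libraries, marker genes went against the labelled tissue in 9: 4 labelled blood, 2 labelled neutrophil, 1 labelled monocyte and 2 labelled skin. If the sample descriptions are sorted as text with their hyphens counted and written over the columns in that order, 29 of the 34 names move, 22 change treatment, and markers match the label in 34 of 34 libraries in place of 25. In these counts, a library that reached no blood, skin or neutrophil limit (given below) was taken as monocyte. No name was changed here, and the groups of the Ics experiment are the same in both orders.

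In the Ics experiment, most of these genes were lower at 3 h and part of them came back by 6 h. Of 35 members with enough counts to test, 28 fell from 0 h to 3 h, 2 rose (Ifi204 and Isg20) and 5 did not pass (Ifi209, Parp9, Parp14, Mx1 and Bst2). Among all 14996 genes tested, 27.5% fell and 26.9% rose, and the members' 28 of 35 is to be read beside these shares. Their median log2 change was -0.88, against -0.06 over all genes tested. A fall of at least 2-fold was called in 16 members and in 9.54% of all genes. With libraries scaled by their totals alone, 6351 genes fell and 2693 rose at 3 h in place of 4129 and 4034, and 30 members fell and 1 rose. Mx2 and Ifi44 were below the count limit and were not tested.

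From 3 h to 6 h, 19 members rose, 5 fell and 11 did not pass, with a median log2 change of 0.36, where 20.5% of all genes tested rose and 20.3% fell. Joined over both steps, 16 members fell and then rose, a course that 8.31% of all genes took. Another 9 fell with no call afterwards. The 3 members Zbp1, Ifit3 and Ifi27l2a fell in both steps, as did 3.94% of all genes. At 6 h, 26 members were still lower than at 0 h and 2 were higher (Ifi204 and Irf9), where 30.4% and 29.6% of all genes had fallen and risen. With totals alone 5785 genes fell and 3455 rose at 6 h in place of 4560 and 4439, and 28 members fell and 2 rose. The count of 5 members that fell from 3 h to 6 h was 3 without Ics 3 h replicate 2, or without Ics 6 h replicate 1, 3 or 4. The count of 2 that rose at 3 h was 1 without Ics 0 h replicate 2 or Ics 3 h replicate 2. The adjusted p-values are from edgeR's quasi-likelihood test, and 3 h and 6 h are set against the same 4 libraries at 0 h.

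The drop can also be given in summed CPM, which carry the TMM scaling of the tests and are not raw counts. These sums use the same values as the tests and weigh most on members with high CPM, such as Samd9l. Summed over the 37 members, the 4 libraries at 0 h held 2111 to 2375 CPM, those at 3 h 1113 to 1166 CPM and those at 6 h 1499 to 1649 CPM, with no overlap between the times. For 27 of the 35 tested members every library at 3 h was below every library at 0 h, which held for 24.9% of all genes. For 2 members every library at 3 h was above, which held for 24.8%. At 6 h, 25 members lay below 0 h without overlap and 2 above, against 27.6% and 27.7% of all genes. For 19 members every library at 6 h was above every library at 3 h, which held for 18.9% of all genes, and for 3 members every library at 6 h was below, which held for 18.3%. In mixed RNA, fewer cells of a type and less RNA per cell cannot be told apart.

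**Figure D1:**
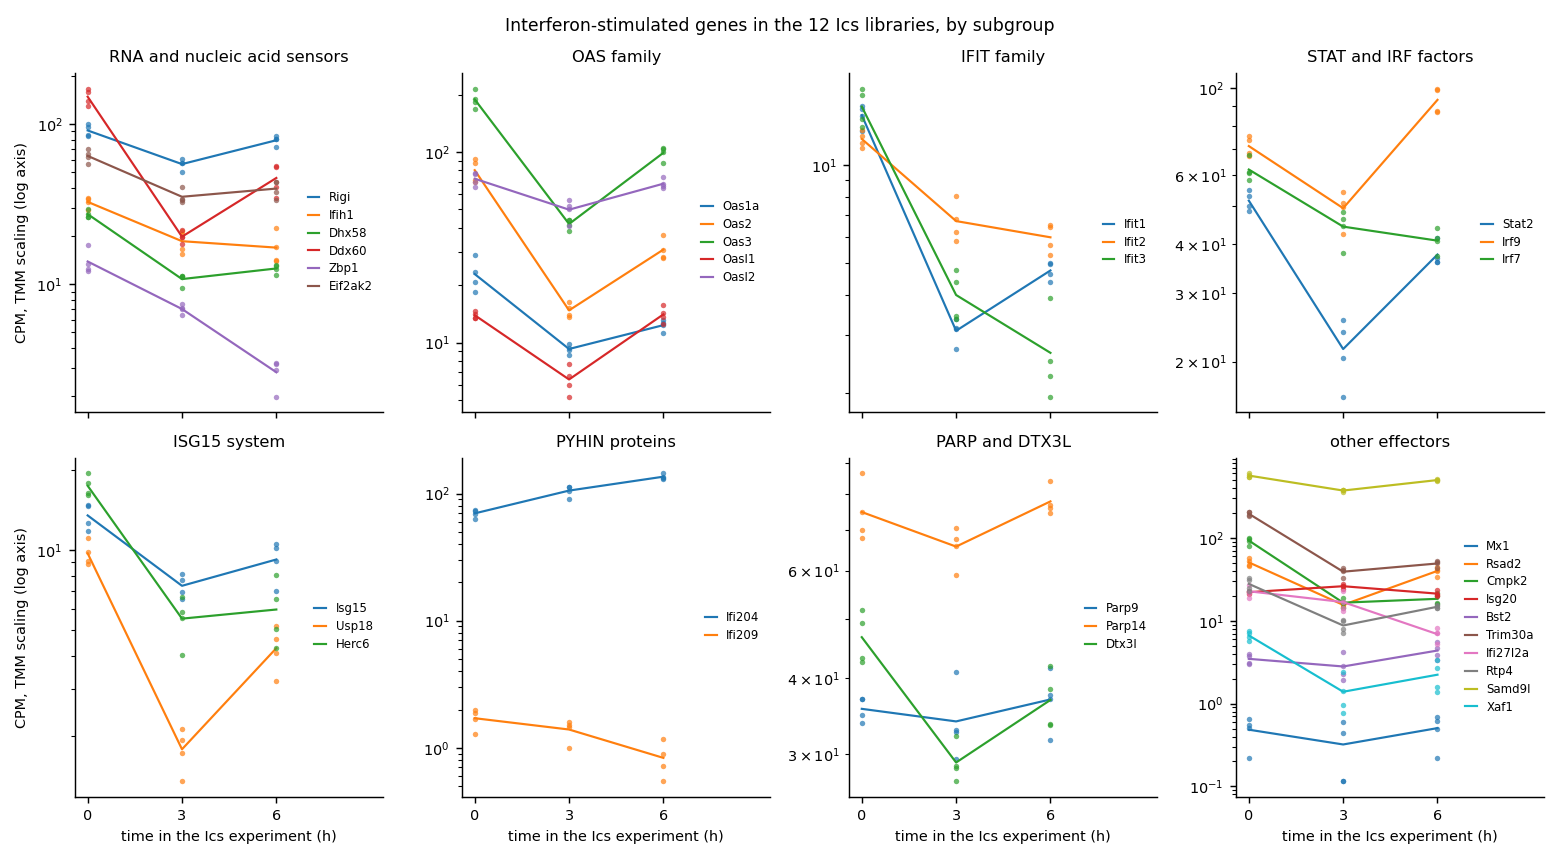
Level of each tested member in the 12 Ics libraries, in CPM with TMM scaling on a log axis, against time in hours, with 1 panel per subgroup. Points are libraries (4 at each time) and lines join the means; all 5 OAS genes dip at 3 h and rise to 6 h, while Zbp1, Ifit3 and Ifi27l2a go on falling and Ifi204 climbs.

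Promoter sequence was examined because so many members moved together. RefSeq promoter windows on GRCm38.p6, from 250 bases before to 50 bases after the start, matched 26 of the 37 members. The motif searched was GAAA, any 2 bases and GAAA again, the core repeat of an interferon-stimulated response element, on both strands with overlapping matches counted. It was present in 13 of the 26 members (50%) and in 3.99% of all 27025 genes with a window. The same motif followed by C, which overlaps the first, was present in 11 members (42.3%) and in 0.944% of all genes. Shown are 6 stretches that lie before the start, 1 or 2 for each of 5 subgroups, 5′ to 3′ in the direction of the gene, with the matches on either strand in capitals (TTTC, any 2 bases and TTTC is the same motif on the other strand).

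Ddx60, chr8:61928019-61928086, plus strand: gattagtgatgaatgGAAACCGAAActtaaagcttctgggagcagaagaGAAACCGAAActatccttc
Oas1a, chr5:120907526-120907560, minus strand: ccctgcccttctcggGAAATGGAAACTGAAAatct
Ifit1, chr19:34640770-34640828, plus strand: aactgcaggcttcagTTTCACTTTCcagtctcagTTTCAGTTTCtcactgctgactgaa
Ifit3, chr19:34583358-34583431, plus strand: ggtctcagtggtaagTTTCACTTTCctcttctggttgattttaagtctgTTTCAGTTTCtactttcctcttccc
Isg15, chr4:156200860-156200911, minus strand: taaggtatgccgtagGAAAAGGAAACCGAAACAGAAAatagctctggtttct
Stat2, chr10:128270261-128270300, plus strand: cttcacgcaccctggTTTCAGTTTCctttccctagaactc

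Ddx60, Ifit1 and Ifit3 each hold 2 separate copies, and in Isg15 and Oas1a the copies run into each other. Of the 13 members with a match 12 fell at 3 h, and of the 12 tested members with a window and no match 10 fell, with median log2 changes of -1.31 and -0.64. This difference was not tested. No match says only that these letters are absent from the window searched.

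The RNA and nucleic acid sensors fell together, and 6 of 6 were lower at 3 h and again at 6 h. Ddx60, on chromosome 8 (61928087 to 62038244, GRCm38), codes a helicase that assists RNA sensing. Its level at 0 h was 158, 167, 129 and 139 CPM, at 3 h 19.9, 17.9, 19.7 and 21.7 CPM, and at 6 h 34.4, 55.1, 40.7 and 54.3 CPM. The 3 times do not overlap, and the level at 6 h lies between the other two. The log2 change was -2.90 ± 0.14 at 3 h (SE, n = 4 and 4 libraries, edgeR adjusted p = 3.89e-10), the largest fall among the members, and 1.22 ± 0.14 from 3 h to 6 h.

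Rigi, the receptor RIG-I for uncapped viral RNA (chromosome 4, 40203773 to 40239828), moved least among the sensors. It was at 85.8, 100.02, 83.8 and 95.7 CPM at 0 h, at 56.9, 50.4, 60.3 and 57.5 CPM at 3 h and at 80.3, 80.3, 72.0 and 84.6 CPM at 6 h. The level at 3 h is below both other times in every library, and 6 h overlaps 0 h. Rigi fell by 0.70 on the log2 scale and then rose by 0.50, and the difference that remained at 6 h (-0.20, edgeR adjusted p = 0.0274) lost its call with DESeq2, with RLE scaling, with no expression filter, with the replicate block and in 8 of the 12 fits that each left out 1 library.

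No rise from 3 h to 6 h was called for the other sensors. Ifih1, which codes the long-RNA receptor MDA5, changed by -0.82 at 3 h and -0.95 at 6 h. Dhx58, which codes their regulator LGP2, changed by -1.35 and -1.13. Eif2ak2, the kinase PKR that halts translation on double-stranded RNA, changed by -0.85 and -0.68. None of the 3 passed the test from 3 h to 6 h. For Dhx58, however, every library at 6 h was above every library at 3 h (log2 difference 0.22, edgeR adjusted p = 0.0589), and this rise was called with DESeq2 (adjusted p = 0.0413), with library totals alone and in 3 of the 12 fits without 1 library. Zbp1, a sensor of Z-form nucleic acid that can start necroptosis, went the other way after 3 h: its mean was 13.9 ± 2.60 CPM at 0 h (SD, n = 4), 7.00 ± 0.482 at 3 h and 2.82 ± 0.571 at 6 h, and it fell by 1.31 ± 0.17 from 3 h to 6 h (edgeR adjusted p = 1.99e-05).

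Active enzymes of the OAS family make the messenger 2-5A, which activates RNase L. In it 5 of 5 fell at 3 h and 5 of 5 rose from 3 h to 6 h. Oas2 (chromosome 5, 120730333 to 120749853) had the largest fall, from 69.9, 92.3, 71.5 and 87.5 CPM at 0 h to 15.2, 16.3, 13.9 and 13.6 CPM at 3 h, and stood at 30.5, 36.6, 28.2 and 27.6 CPM at 6 h. No library of one time reaches those of another. Its log2 change was -2.44 ± 0.12 at 3 h (edgeR adjusted p = 2.87e-10) and 1.06 ± 0.11 from 3 h to 6 h.

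Oasl2 had the smallest fall of the family. It was at 69.3, 76.9, 65.8 and 77.6 CPM at 0 h, at 40.9, 52.1, 55.9 and 50.4 CPM at 3 h and at 64.7, 73.7, 66.2 and 68.2 CPM at 6 h. The libraries at 3 h are below all others, and 0 h and 6 h overlap. Oasl2 fell by 0.54 and Oasl1, which restrains Irf7 translation, by 1.12 at 3 h. At 6 h they were at 94.2% and 101% of their mean at 0 h, with log2 differences from 0 h of -0.09 ± 0.09 and 0.01 ± 0.11 that did not pass the test. Oas3 and Oas1a returned to 52.4% and 54.0% and Oas2 to 38.3% of the 0 h level. Oas1a has near-identical neighbours, among them Oas1g, between which reads can be divided.

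The IFIT proteins, which bind viral RNA and block its translation, split after a shared fall. Ifit1 (chromosome 19, 34640871 to 34650009) was at 12.7, 15.2, 14.2 and 14.9 CPM at 0 h, at 3.38, 3.13, 2.72 and 3.16 CPM at 3 h and at 4.63, 5.00, 4.98 and 4.37 CPM at 6 h. The 3 times do not overlap. Its log2 change was -2.19 ± 0.11 at 3 h (edgeR adjusted p = 6.12e-10) and 0.61 ± 0.11 from 3 h to 6 h.

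Ifit2 had the smallest fall of the 3 IFIT genes, by 0.84. Its libraries were at 12.3, 11.7, 11.3 and 12.8 CPM at 0 h, 8.02, 5.83, 6.22 and 6.83 CPM at 3 h and 5.69, 6.56, 5.29 and 6.45 CPM at 6 h, so that both later times lie below 0 h and overlap each other. Ifit3 fell by 1.92 at 3 h and by a further 0.59 ± 0.20 by 6 h (edgeR adjusted p = 0.0316), to 17.6% of its 0 h level. That second fall lost its call in 6 of the 12 fits that each left out 1 library. Ifit3b, a near-identical copy of Ifit3, fell by 2.37 at 3 h and changed by 0.49 from 3 h to 6 h with no call, and reads of this pair can be divided between them.

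The factors that carry the interferon signal fell as well. Stat2 (chromosome 10, 128270559 to 128292849) was at 54.8, 48.6, 53.0 and 49.96 CPM at 0 h, 20.5, 25.6, 23.8 and 16.3 CPM at 3 h and 36.9, 41.5, 36.0 and 36.0 CPM at 6 h. The times do not overlap. Its log2 change was -1.26 ± 0.11 at 3 h (edgeR adjusted p = 2.48e-07) and 0.80 ± 0.11 from 3 h to 6 h.

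Irf9, the DNA-binding partner of STAT2, overshot its starting level. It was at 67.1, 73.6, 68.2 and 75.6 CPM at 0 h, 50.99, 54.4, 42.3 and 49.7 CPM at 3 h and 99.7, 87.6, 99.1 and 86.8 CPM at 6 h. Every library at 6 h is above every library at 0 h. Irf9 fell by 0.53 ± 0.08, then rose by 0.92 ± 0.08, and ended at 131% of its 0 h level (log2 difference 0.39 ± 0.08, edgeR adjusted p = 0.000518).

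Irf7, the factor that amplifies interferon alpha transcription, fell at 3 h and had no call from 3 h to 6 h. Its libraries were at 60.8, 67.6, 58.3 and 61.1 CPM at 0 h, 44.4, 48.3, 38.0 and 46.4 CPM at 3 h and 41.3, 40.6, 37.2 and 43.9 CPM at 6 h. Both later times are below 0 h and overlap each other. The log2 change was -0.48 ± 0.08 at 3 h (edgeR adjusted p = 0.000115), the smallest of the 3 factors, and -0.60 at 6 h.

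Isg15 is a ubiquitin-like protein, Herc6 its ligase in the mouse, and Usp18 the protease that removes it and also blocks the receptor. All 3 fell at 3 h, and Usp18 rose from 3 h to 6 h. Usp18 (chromosome 6, 121245906 to 121270917) was at 9.81, 8.88, 9.06 and 11.1 CPM at 0 h, 1.93, 1.72, 2.12 and 1.35 CPM at 3 h and 4.63, 5.18, 4.09 and 3.21 CPM at 6 h, with no overlap. It fell by 2.45 ± 0.18 and rose by 1.26 ± 0.18 (edgeR adjusted p = 2.57e-08 and 5.4e-05).

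Isg15 moved least of the 3. It was at 12.6, 14.8, 11.8 and 14.7 CPM at 0 h, 6.94, 8.14, 6.57 and 7.68 CPM at 3 h and 10.2, 10.5, 9.11 and 6.99 CPM at 6 h, where 1 library stayed among those of 3 h. Isg15 fell by 0.88, and its difference of 0.33 from 3 h to 6 h did not pass (edgeR adjusted p = 0.0685), though it was called with library totals alone and without Ics 6 h replicate 4. Herc6 fell by 1.66 and its later difference was 0.12.

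The PYHIN proteins bind DNA, and the 2 measured here differed in direction. Ifi204 (chromosome 1, 173747293 to 173766943) was at 62.6, 74.5, 68.9 and 73.1 CPM at 0 h, 113, 105, 113 and 90.8 CPM at 3 h and 145, 136, 133 and 129.6 CPM at 6 h. It climbed in every step without overlap, by 0.60 ± 0.08 and then 0.36 ± 0.07 (edgeR adjusted p = 9.93e-06 and 0.00135), to 194% of its 0 h level. Ifi209, a close relative, was near the count limit at 1.99, 1.88, 1.68 and 1.29 CPM at 0 h, 1.45, 1.60, 1.51 and 1.00 CPM at 3 h and 0.719, 1.17, 0.895 and 0.546 CPM at 6 h. Its times overlap from one step to the next, and it passed from 3 h to 6 h with -0.74 ± 0.26 (edgeR adjusted p = 0.0352), a call lost in 6 of the 12 fits without 1 library.

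Parp9 and Dtx3l form a complex that modifies histones, and Parp14 is a related ADP-ribosyltransferase. Dtx3l fell from 43.1, 49.3, 42.5 and 51.7 CPM at 0 h to 32.1, 27.1, 28.4 and 28.6 CPM at 3 h and stood at 33.6, 38.3, 33.5 and 41.9 CPM at 6 h. Its 3 times do not overlap, with log2 changes of -0.68 ± 0.09 and 0.34 ± 0.09 (edgeR adjusted p = 1.75e-05 and 0.00852). Parp9, which shares its promoter region head to head with Dtx3l, was at 36.9, 36.9, 33.7 and 34.8 CPM at 0 h, 32.8, 32.6, 40.9 and 29.4 CPM at 3 h and 36.9, 41.5, 31.6 and 37.4 CPM at 6 h. All its times overlap, and its log2 difference at 3 h was -0.07 ± 0.10. Their annotated spans overlap on opposite strands (Parp9 from 35938470, Dtx3l to 35939151 on chromosome 16), and the strand used in counting is not given in the sources used here. Parp14 did not pass at 3 h (-0.19) and rose by 0.25 from 3 h to 6 h.

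Of the other effectors, 7 of 10 tested fell at 3 h. Cmpk2, a mitochondrial nucleotide kinase next to Rsad2 on chromosome 12 (26469204 to 26479837), was at 98.1, 92.8, 80.4 and 101 CPM at 0 h, 16.3, 18.6, 14.3 and 16.9 CPM at 3 h and 16.2, 20.1, 15.9 and 21.4 CPM at 6 h. The libraries at 3 h and 6 h overlap each other, and all are far below 0 h. Cmpk2 fell by 2.49 ± 0.11 (edgeR adjusted p = 1.76e-10), and its later difference was 0.15 ± 0.11.

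Its neighbour Rsad2, which codes viperin, an enzyme that makes a chain-terminating nucleotide, did come back. Rsad2 was at 50.7 ± 5.38 CPM at 0 h (SD, n = 4), 15.5 ± 0.723 at 3 h and 40.0 ± 4.49 at 6 h, a fall of 1.70 and then the largest rise among the members, 1.36 ± 0.09 (edgeR adjusted p = 6.81e-08). At 6 h Rsad2 stood at 79.0% and Cmpk2 at 19.8% of the 0 h level.

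Trim30a, a regulator of NF-kB signalling, fell by 2.32 and stood at 25.1% of its 0 h level at 6 h. Samd9l, a growth-restraining host factor, fell from 566 ± 33.5 to 373 ± 9.48 CPM and was back to 500.0 ± 10.5 CPM at 6 h (SD, n = 4 each). Rtp4 fell by 1.67 and rose by 0.75, and the apoptosis factor Xaf1 fell by 2.25. Ifi27l2a fell by 0.43 at 3 h, a call (edgeR adjusted p = 0.0485) lost in 9 of the 12 fits without 1 library, and by a further 1.29 ± 0.18 by 6 h, to 30.3%.

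Isg20, a 3′ exonuclease for RNA, moved the other way at 3 h. It was at 22.3, 20.8, 22.4 and 23.0 CPM at 0 h, 26.2, 28.1, 24.2 and 26.1 CPM at 3 h and 23.8, 20.3, 21.0 and 19.9 CPM at 6 h, so 3 h lies above both other times. The rise of 0.24 ± 0.08 (edgeR adjusted p = 0.0173) was -0.01 when libraries were scaled by their totals alone, a setting that moved the median of all genes at 3 h from -0.06 to -0.30. Bst2, or tetherin, which holds budding virions at the membrane, rose by 0.63 from 3 h to 6 h with overlapping libraries and lost that call in 6 of the 12 fits without 1 library. Mx1 stayed at 0.116 to 0.685 CPM, Ifi44 at 0.0343 to 0.444 CPM, and Mx2 was at 0 in 11 of 12 libraries.

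**Figure D2:**
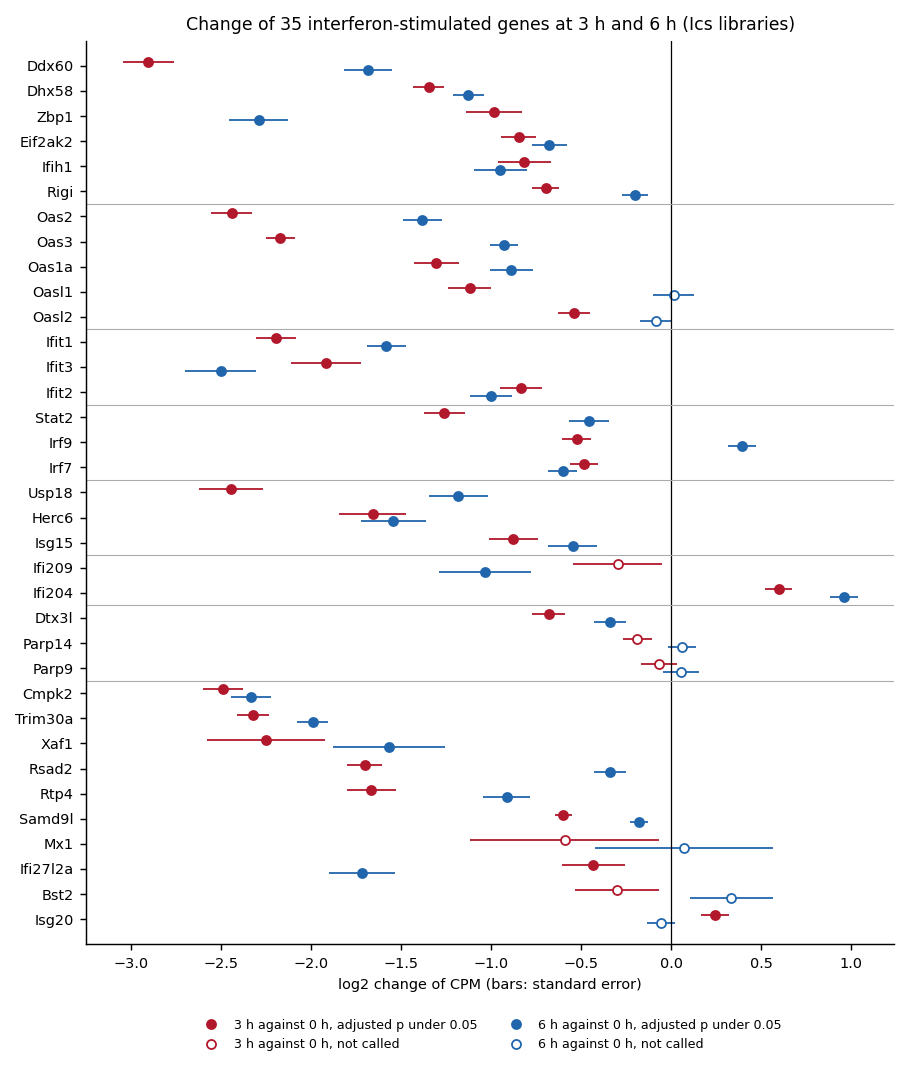
Log2 change of CPM at 3 h (red) and 6 h (blue) against 0 h for the 35 tested members, grouped by subgroup in the order of the text, with bars of 1 standard error. Filled points passed the test; at 6 h Oasl1 and Oasl2 sit at 0 and Irf9 and Ifi204 to the right of it, while Zbp1, Ifit3 and Ifi27l2a lie farther left than at 3 h.

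Other genes of the pathway did not share 1 direction. Of 21 interferon genes, 18 had 0 counts in all 12 Ics libraries, among them Ifnb1 (which allows up to 0.00912 CPM over these libraries by 3 counts), and the other 3 held 7 counts in all. Of 8 receptor and JAK-STAT genes, 7 rose at 3 h and 1 fell. Ifnar1, the receptor chain that binds TYK2, rose from 74.2 ± 5.75 to 269 ± 9.74 CPM (log2 change 1.86 ± 0.06, edgeR adjusted p = 9.67e-12), Jak2 by 2.08 ± 0.08 and Ifngr2 by 1.66 ± 0.07.

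Of 14 tested genes that induce interferon, 10 rose and 3 fell at 3 h. Tlr9, a sensor of unmethylated DNA, rose by 6.71 ± 0.17, Traf3, an adaptor on the way to IRF3 and IRF7, by 1.70 ± 0.06, and Irf5 by 2.60 ± 0.11. Of 7 negative regulators, 4 rose and 0 fell, with Ptpn6 (the phosphatase SHP-1) at 0.83 ± 0.05, Ptpn11 at 1.02 ± 0.06 and Cish at 2.08 ± 0.24. These rises can be read against the 26.9% of all genes that rose.

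Of 13 tested interferon-gamma-inducible genes, 4 rose and 7 fell at 3 h. Gbp7, a guanylate-binding protein, fell by 2.60 ± 0.12. Cxcl10, a chemokine for T cells, rose from 0.994 ± 0.348 to 17.3 ± 0.529 CPM and Gbp5 by 2.87 ± 0.16. Of 38 further interferon-stimulated genes, 24 fell and 3 rose, with a median of -0.80. Slfn1 fell by 1.36 ± 0.05, Trim30d by 1.87 ± 0.08 and Epsti1 by 2.06 ± 0.11. From 3 h to 6 h, 15 of these 38 rose and 6 fell.

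**Figure D3:**
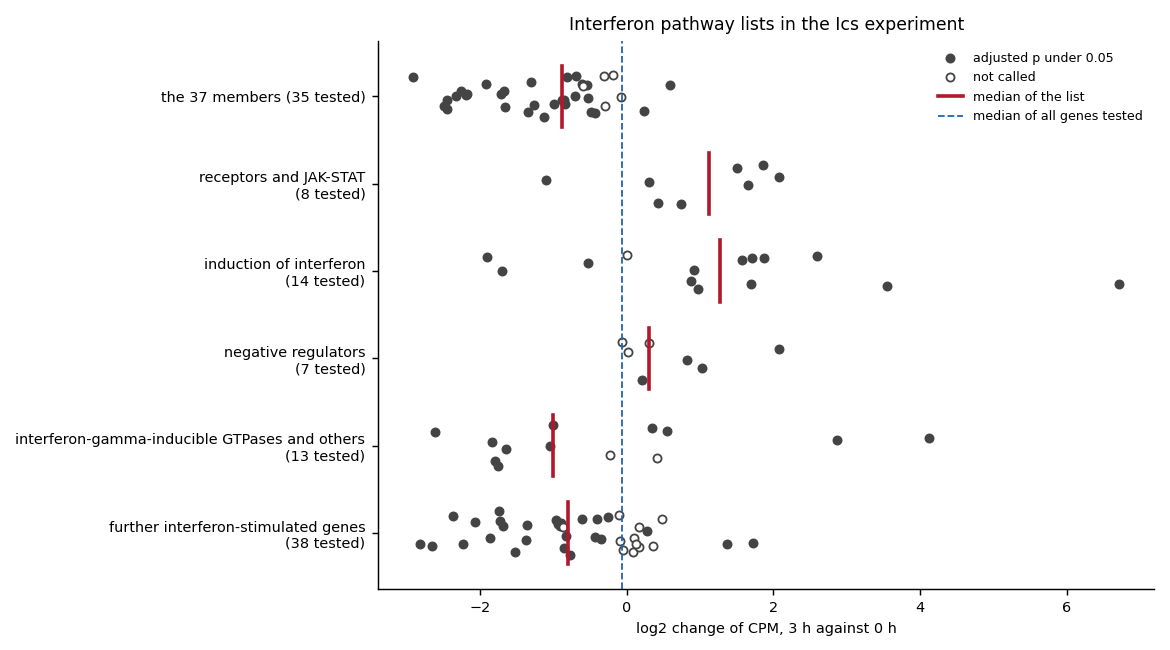
Log2 change of CPM from 0 h to 3 h for each tested gene of the members and of 5 pathway lists, with filled points for genes that passed the test. Red bars are list medians and the dashed line the median of all genes tested (-0.06); the members and the further interferon-stimulated genes lie mostly to its left (medians -0.88 and -0.80), receptors and inducers mostly to its right.

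Markers of other cells and of RNA content moved over the same times. As sums of CPM by library totals, the 10 neutrophil markers were at 96165 to 104492 at 0 h, 70863 to 84437 at 3 h and 58550 to 64282 at 6 h. With the TMM scaling used for the members, 3 of these 10 fell at 3 h, 1 rose and 6 had no call, with a median log2 change of -0.07 against -0.06 over all genes, and at 6 h 7 were lower than at 0 h and 1 was higher. The 7 red cell markers summed to 114 to 297 CPM at 0 h, 17.2 to 49.9 at 3 h and 8.19 to 19.6 at 6 h, and the 6 platelet markers to 29.5 to 41.9, 5.13 to 9.19 and 4.81 to 8.80 CPM. The 9 T and NK cell markers summed to 15.9 to 20.0, 12.9 to 17.8 and 5.94 to 8.17 CPM. The 6 fibroblast markers summed to 22.2 to 33.8, 11.6 to 16.0 and 29.2 to 40.7 CPM. Their higher sum at 6 h came from Col1a1, at 14.7 to 19.0, 11.0 to 14.4 and 28.8 to 40.4 CPM. Col1a2 went from 5.12 to 11.9 CPM at 0 h to 0.172 to 0.329 CPM at 6 h. Col3a1, Dcn, Lum and Pdgfra were also lower at 6 h than at 0 h. The 10 monocyte and macrophage markers summed to 794 to 895, 909 to 952 and 904 to 969 CPM. Single markers of this list went opposite ways: with TMM scaling 4 rose and 6 fell at 3 h. Csf1r was at 139 to 178, 386 to 433 and 466 to 542 CPM by library totals. Ly6c2 was at 579 to 677, 325 to 406 and 240 to 257 CPM. For the 7 plasmacytoid dendritic cell markers the sums were 98.9 to 113, 85.0 to 91.0 and 62.5 to 105 CPM. Nearly all of this was Runx2, at 95.4 to 109, 83.3 to 88.4 and 61.1 to 104 CPM. Siglech was at 0.484 to 0.821 CPM at 0 h, and Klk1 at 0 at 0 h and 3 h. The 13 mitochondrial messengers summed to 4254 to 5279 CPM at 0 h and 2928 to 3111 at 6 h. Their part in the members' changes was not tested.

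For the tissues, levels are in CPM with TMM scaling over all 46 libraries, so they are not on the scale of the Ics values above. Since 9 labels go against the markers, libraries are described by the class that markers give them, with limits of 10% haemoglobin for blood, 100 CPM of Krt5 and Krt14 for skin and 10000 CPM of S100a8 and S100a9 for neutrophil. Libraries that reached none of these limits were called monocyte, with no limit set on a monocyte marker. This gives 10 libraries in the blood class, 10 in the neutrophil class, 8 in the monocyte class and 6 in the skin class. The 10 monocyte and macrophage markers summed to 891 to 10214 CPM in the monocyte class. In the neutrophil class they summed to 2059 to 3918 CPM, so the 2 classes overlap in these markers. Means by label mix these classes: Isg20 in the libraries labelled Neutrophil IVIG was 583 ± 1281 CPM (SD, n = 5), with a median of 9.54 CPM and 1 library with blood markers at 2874 CPM.

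By label, the 5 members with the highest mean CPM in Blood PBS were Isg20 (964), Rsad2 (287), Isg15 (115), Ifi27l2a (75.2) and Irf7 (68.4), and Blood IVIG had the same 5. In Neutrophil PBS they were Isg20 (693), Rsad2 (280), Isg15 (73.2), Irf7 (62.4) and Oas3 (61.9), and Neutrophil IVIG had Samd9l in place of Irf7. In Monocyte PBS they were Trim30a (96.7), Ifi27l2a (60.6), Ifi209 (59.5), Ifi204 (35.9) and Bst2 (33.9), and Monocyte IVIG had Stat2 in place of Ifi204. In Skin PBS they were Ifi27l2a (374), Isg20 (341), Irf7 (325), Rsad2 (271) and Isg15 (139), again the same 5 as in Skin IVIG. The neutrophil and skin groups of both treatments each hold 1 library with blood markers. Their means of Isg20, Rsad2 and Isg15 are to be read beside the class medians below.

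In the 10 libraries with blood markers, haemoglobin took 89.2% to 98.3% of counts. There 5 members were above the neutrophil and monocyte classes without overlap. Isg20 ranged from 751 through a median of 2090 to 4540 CPM, against medians of 9.54 in the neutrophil, 2.78 in the monocyte and 7.98 in the skin class. Rsad2 had a median of 673 CPM, against 9.44, 1.98 and 16.5. Isg15 had a median of 286 CPM, against 9.92, 4.52 and 20.4. Isg20, Rsad2 and Isg15 did not overlap any other class, whereas Irf7 (median 138 CPM) and Ifit2 (28.7 CPM) overlapped only the skin class. Blood was thus above neutrophils without overlap in 5 of 37 members and 7.11% of the 19941 genes kept over all libraries, above monocytes in the same 5 and 5.85%, and above skin in 3 and 8.84%. The 3 of 37 members above skin are close to the share of all genes. Per kilobase of exon, the order in blood was Isg20 (1242 CPM per kb), Isg15 (385), Rsad2 (224) and Irf7 (41.4). These libraries held only 594962 to 3454197 counts outside haemoglobin, and on that denominator Isg20 had a median of 4346 CPM.

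Blood did not lead throughout. The median of Ddx60, Oas1a, Oas2, Ifi204, Cmpk2, Trim30a and Samd9l was lower in the blood class than in the neutrophil class, with no overlap between their libraries. These are 7 of 37 members, where 17.7% of all genes did the same, so the share is near that of all genes. In the neutrophil class the 5 members with the highest median CPM were Oas3 (60.8), Trim30a (48.9), Samd9l (48.5), Oas2 (47.6) and Irf7 (42.3). Neutrophil libraries exceeded monocyte libraries without overlap in Ddx60, Oas3, Rsad2 and Samd9l, and in no member did monocytes exceed neutrophils without overlap. The shares of all genes were 7.55% and 0.587%, so 4 and 0 of 37 members are close to them.

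In the monocyte class the leading members were Ifi209 (median 70.0 CPM), Ifi27l2a (61.9), Trim30a (56.1), Bst2 (42.1) and Stat2 (41.2). The library labelled Monocyte PBS replicate 3 had 8959 genes at 5 or more counts and mitochondrial messengers at 825167 CPM. Mitochondrial messengers were also high in 4 others of the 8 libraries of the class, at 538227 CPM in Monocyte IVIG replicate 1, 442165 in Monocyte PBS replicate 2, 288349 in Monocyte IVIG replicate 2 and 170669 in Monocyte PBS replicate 4. Their part in the members' levels was not tested. Ifit2, Isg15 and Isg20 were each at 0 in at least 1 library of the class.

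The skin class held the highest median of the 4 tissue classes for 21 of the 37 members, and for 41.4% of all genes. Ifi27l2a, a small mitochondrial or nuclear membrane protein, ranged from 252 through a median of 400.5 to 595 CPM, above every library of the blood, neutrophil and monocyte classes. The next medians by CPM were Irf7 (143), Bst2 (109), Ifi204 (78.4) and Samd9l (64.0).

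The Ics libraries at 0 h carry neutrophil markers, yet many of their members were at other levels than in the neutrophil class. Samd9l had a median of 315 CPM at 0 h against 48.5 in the neutrophil class, Ddx60 82.0 against 14.9, and Rsad2 27.8 against 9.44. In the other direction, Ifi209 was at 1.00 against 26.5 CPM, Bst2 at 1.91 against 28.7, Mx1 at 0.298 against 6.80 and Ifi27l2a at 12.5 against 39.3. For 12 members every neutrophil-class library was below every Ics library at 0 h, and for 8 every one was above. Among all genes 21.7% and 23.6% did the same, so the 8 of 37 members are close to their share. Such differences were thus spread over all genes and are not particular to the members. The 2 sets come from separate experiments and share no library, so this difference was not tested.

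**Figure D4:**
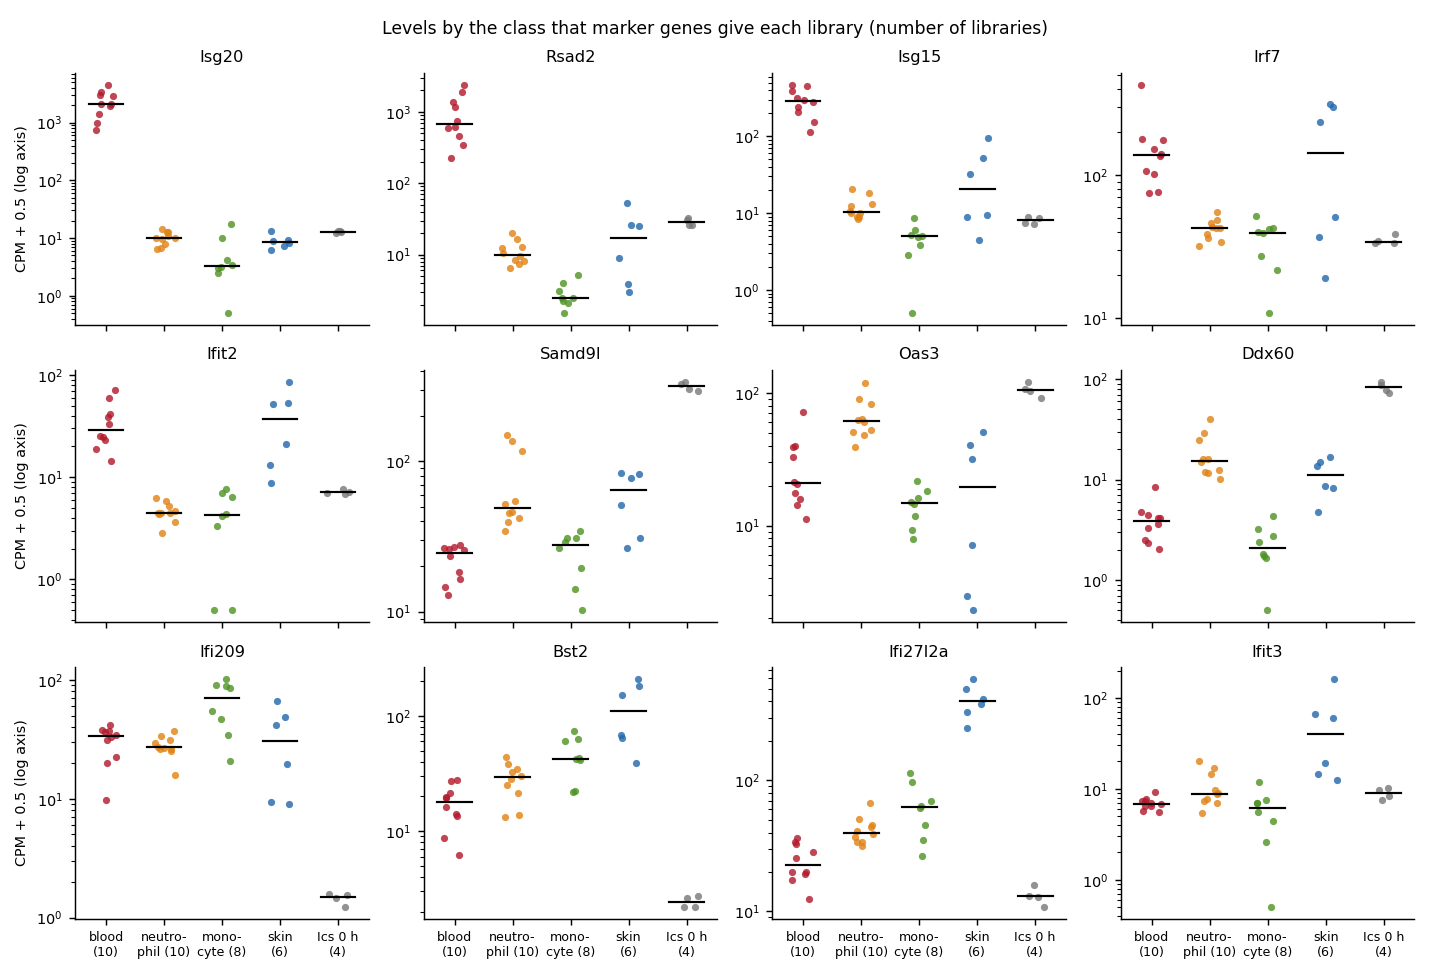
Level of 12 members, chosen after their values were seen, as CPM with TMM scaling over 46 libraries plus 0.5 on a log axis, by the class that marker genes give each library and at 0 h of the Ics experiment. Points are libraries and bars medians; Isg20, Rsad2 and Isg15 are highest in the 10 blood libraries, and Ifi209 and Bst2 are lowest in the 4 Ics libraries.

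IVIG was then compared with PBS as the libraries are labelled. In edgeR 0 members passed in blood (36 tested), neutrophils (37), monocytes (37) and skin (37), and 0% of all genes passed in each of the 4 tissues. DESeq2 and limma voom called 0 members too, and DESeq2 called 1 gene in blood, 0 in neutrophils, 3 in monocytes and 1 in skin. At an unadjusted p under 0.05 edgeR gave 0 members in blood, where 0.406% of all genes were lower and 0.309% higher, and 0 in neutrophils, where the shares were 0.271% and 0.249%. It gave 2 in monocytes, 1 lower and 1 higher, where 0.784% of all genes were lower and 1.2% higher. It gave 10 in skin, all lower with IVIG, where 0.495% of all genes were lower and 0.476% higher.

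The values with the smallest p were spread widely. In blood they were Ifit3 (log2 difference 1.40 ± 0.67, IVIG minus PBS), Irf7 (1.25 ± 0.61) and Zbp1 (1.04 ± 0.66), and Zbp1 was at -0.43 when only libraries with blood markers were kept. In neutrophils they were Ifi44 (-1.94 ± 1.28), Herc6 (-0.47 ± 0.35) and Ifih1 (0.36 ± 0.31). In monocytes they were Samd9l (-1.01 ± 0.32), Bst2 (0.93 ± 0.33) and Oas3 (-1.01 ± 0.52). In skin they were Oasl1 (-2.35 ± 0.65), Rigi (-1.31 ± 0.42) and Ifi209 (-1.68 ± 0.54). The smallest adjusted p of any member in these 4 comparisons was 0.99988. Titles of these libraries also start with S2, S3 or S5 and carry a number that recurs across tissues, neither of which the labels explain. With that prefix as a term, an alternative chosen after seeing the data, edgeR again called 0 members in blood, neutrophils and monocytes, and 0, 0 and 2 had an unadjusted p under 0.05. The shares of all genes in those fits are not given here. Every skin title starts with S5.

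With only the libraries whose markers match their label, 0 members passed in each tissue. In skin this leaves 2 libraries against 2, and all 37 members were lower in those named IVIG, with a median log2 difference of -1.94 against 0.02 over all genes. There 34 members had an unadjusted p under 0.05, a limit at which 4.3% of all 16934 genes tested were lower and 4.23% higher, with 0.0236% called after adjustment, and the smallest adjusted p of a member was 0.212 (Irf7, -2.65 ± 0.32, edgeR). In blood (3 against 3), 2 members were lower and 2 higher at that limit, beside 3.11% and 3.6% of all genes, of which 0.0477% were called after adjustment. In neutrophils (4 against 4) the counts were 0 and 0, beside 0.403% and 0.528%, and in monocytes (3 against 4) 1 and 1, beside 0.72% and 1.46%, with 0% called in both. The directions in these comparisons rest on the deposited names. In the other order of the descriptions, both libraries named Skin IVIG would be named PBS and both named Skin PBS would be named IVIG. Every neutrophil library with matching markers would also change treatment, as would every such monocyte library but Monocyte PBS replicate 4. Of the blood libraries with matching markers, only Blood IVIG replicate 1 would change.

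The 6 libraries with skin markers include 2 labelled blood, and their members fell at separate levels. Irf7 was at 312 CPM in Skin PBS replicate 2, 235 in Skin PBS replicate 3 and 299 in Blood IVIG replicate 3, and at 50.5 in Skin IVIG replicate 1, 36.4 in Skin IVIG replicate 2 and 18.5 in Blood PBS replicate 2. Ifit3 in the same order was at 162, 59.4, 66.6, 18.9, 14.0 and 12.1 CPM. Oas3 was at 50.5, 31.4, 40.0, 6.58, 2.43 and 1.80 CPM.

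For 35 of the 37 members the same 3 libraries were the highest of the 6, and the exceptions were Ifi27l2a and Isg20. The same 3 were highest for 8.82% of all genes; they were picked from the members' own values, so this is a description. Ifi27l2a was at 595, 493 and 382 CPM in those 3 and at 333, 419 and 252 in the others. As deposited, 2 of the 3 high libraries are named PBS and 1 IVIG. In the other order of the descriptions all 3 would be named Skin IVIG and the other 3 Skin PBS, so neither direction is taken from these names.

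Cell markers differ among these 6 libraries as well. In the order given for Irf7, the 10 monocyte and macrophage markers summed to 3092, 3649, 4803, 2809, 1552 and 2283 CPM. The 10 neutrophil markers summed to 69.8, 94.4, 95.6, 53.4, 40.3 and 24.1 CPM. Both sums were higher in the same 3 libraries, but single markers did not all follow. Adgre1, at 639, 1045, 1165, 628, 285 and 226 CPM, followed. Csf1r (391, 675, 707, 577, 253 and 526 CPM) and Ccr2 (155, 132, 150, 157, 77.3 and 70.3 CPM) did not. Nor did S100a8 and S100a9 together, at 9.94, 3.02, 10.8, 3.51, 13.9 and 2.95 CPM. The 6 fibroblast markers summed to 13979, 16266, 24555, 26890, 35470 and 20782 CPM, and the 6 keratinocyte markers to 4145, 981, 1270, 2174, 4797 and 3388 CPM. The 9 T and NK cell markers summed to 180, 117, 120, 173, 167 and 60.6 CPM. The 7 plasmacytoid dendritic cell markers summed to 510, 193, 164, 195, 606 and 599 CPM. Of these markers, Siglech was at only 4.36 CPM in Blood PBS replicate 2 and 1.497 CPM in Blood IVIG replicate 3. There the sum came mostly from other markers of the list, so its differences cannot be read as differences in plasmacytoid dendritic cells. Ifng, the type II interferon, had 34, 18, 49, 23, 34 and 4 counts, and Ifnb1 had 4 counts in Skin PBS replicate 2, 1 in Skin IVIG replicate 1 and 0 in the other 4. The part of these in the members' levels was not tested.

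**Figure D5:**
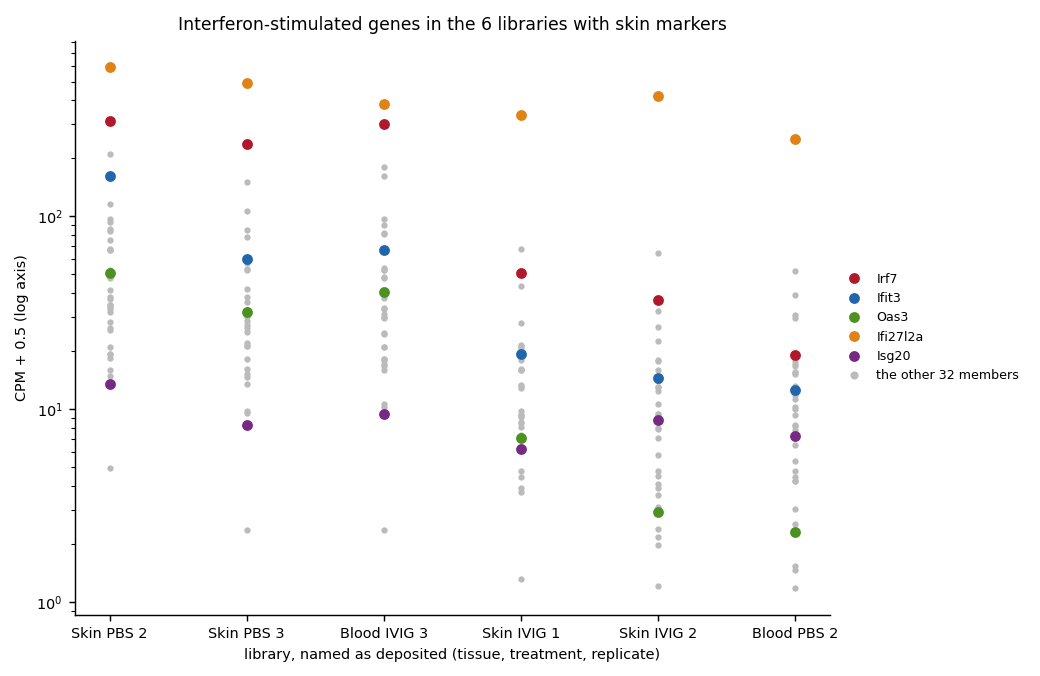
Level of each member in the 6 libraries with skin markers, as CPM with TMM scaling over 46 libraries plus 0.5 on a log axis, with the libraries named as deposited. Each point is 1 member in 1 library; Irf7, Ifit3 and Oas3 are higher in the 3 libraries on the left than in the 3 on the right, while Isg20 stays between 5.68 and 13.0 CPM.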

How the data were processed

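RNA of 46 mouse libraries was quantified with kallisto 0.46.1 against GRCm38, per the submitters' processing notes. The authors deposited 1 table of estimated counts for 46264 gene symbols, which the file name calls length-scaled TPM; the gene summing, the scaling tool and the strand setting are not given in the sources used here. Counts were rounded to whole numbers. Groups came from the condition field, since the treatment field differed from it in 34 libraries.

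The members and lists were chosen with earlier results of these data known. The 12 Ics libraries were fitted together, and IVIG was compared with PBS within each labelled tissue, by edgeR's quasi-likelihood test (version 4.0.16, R 4.3.3). Scaling was by TMM and the filter was filterByExpr with a minimum count of 10. A gene rose or fell when its Benjamini-Hochberg adjusted p over all genes tested was under 0.05. The standard error is the log2 change divided by the square root of F. Named genes followed a rule: all members by subgroup, library values for the largest and smallest change at 3 h in each subgroup and the STAT and IRF factors, up to 3 genes of each pathway list by smallest p at 3 h, 3 members by smallest p for IVIG, and the 5 highest members per labelled tissue; levels by marker class and the members with other values there were chosen after their values were seen. CPM were computed from the counts. Promoters and gene positions are from RefSeq and GENCODE vM21 on GRCm38. A check of 77 pairs of libraries of 1 group found 0 identical. On simulated data for Ics 3 h against 0 h (14705 genes), 70% of genes doubled and 49.0% of genes raised 1.5-fold were recovered. Depth was 18965434 counts or more per library. Alternatives were RLE scaling, library totals, DESeq2 1.42.0, limma 3.58.1 voom, no expression filter, a replicate block, leaving out haemoglobin genes, matching libraries only, another pseudocount, leaving out each library and, chosen after seeing the data, the title prefix as a term. Values of 1 gene of the receptor and JAK-STAT list are not reported here.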

Additional observations from a re-analysis of the deposited data

Results flagged for a closer look

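In a group of 4 to 10 libraries, a value was picked out when its gap to the next exceeded the limit of Dixon's test at 95%. Of 105 combinations of a member and an Ics time, 2 were picked out, and chance gives about 1 in 20. Dhx58 at 3 h was at 9.47 CPM in replicate 2 and at 11.2 in the other 3. Stat2 at 6 h was at 41.5 CPM in replicate 2 and at 36.0 to 36.9 in the others. Of 8 labelled groups of at least 4 libraries, 1 had such a value in the mean level of the members, in Blood PBS replicate 2: its mean level of the members was 3.20 (mean log2 of CPM plus 0.5), against 3.73 to 3.93 in the other 4. That library carries skin markers.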

How the results depend on the processing

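In the Ics experiment, 27 to 30 members fell at 3 h in the fits with other scaling, tools or filters. With library totals alone 1 member rose at 3 h in place of 2, since Isg20 was at -0.0068, and 3 members fell from 3 h to 6 h in place of 5. The second count was also 3 with no expression filter. With totals alone the differences at 6 h turned to -0.15 for Oasl1, -0.11 for Parp9, -0.10 for Parp14 and -0.0888 for Mx1, none of them called with TMM scaling. In blood with IVIG, Zbp1 was at -0.43 with matching libraries only. Leaving out 1 library at a time, 27 to 29 members fell and 1 to 2 rose at 3 h, 24 to 26 fell from 0 h to 6 h, and 3 to 5 fell and 18 to 20 rose from 3 h to 6 h. The difference ranged from -0.0315 to 0.25 for Herc6 from 3 h to 6 h, from -0.18 to 0.32 for Mx1 and from -0.0424 to 0.0684 for Oasl1 at 6 h, and from -0.0058 to 1.27 for Zbp1 in blood, the lowest without Blood IVIG replicate 3. The cause was not tested. With the title number as a replicate block, 29 members fell and 2 rose at 3 h, and 25 fell and 2 rose at 6 h. From 3 h to 6 h, 5 fell and 22 rose, among them Isg15, Dhx58 and Xaf1, which had no call without the block. The shares of all genes with the block are not given here, so these counts cannot be set beside them. The labels do not say what a number pairs. Same-numbered libraries correlated at 0.0723 to 0.224 after removing the group means, over 0.1 in 10 of 12 pairs. In each of the 12 comparisons of a library with those of a later time, the same number matched best. This is a hint from the data and not the design. Depth limits Mx1, Mx2, Ifi44 and Ifi209, at under 2 CPM.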
